A study of Mus musculus with 24 samples.

Results

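The p53 pathway was followed through 10 listed genes: Trp53, Mdm2, Cdkn1a, Plk2, Perp, Zmat3, Ccng1, Bax, Bbc3 and Trp53inp1. Each gene was represented by the probe set that carries its symbol alone and has the highest mean signal on its array type. On the larger array type 7 of the 10 had such a probe set, among 19938 genes in all, and on the smaller one 8 of the 10 had one, among 18194 genes. Trp53 and Bax had none on either type and are not analysed here. Cdkn1a was measured on the smaller type only, since on the larger its probe set also carries a second symbol.

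The arrays profiled total RNA of mouse embryonic stem cells (ES), the neuronal progenitors (NP) derived from them, and terminal neurons (TN). On 18 arrays the cells were of strain Black Agouti 129, with labels that differ in the gene for REST, a repressor of neuronal genes. ES and NP were labelled RESTko (knock-out) or RESTwt (wildtype), and TN were labelled RESTko or RESThet (heterozygous knock-out). Each of the 6 groups had 3 arrays. The other 6 arrays followed a wildtype course in a strain given as mixed 129Sv-C57Bl/6, with 2 arrays at each stage. The study's design asks how loss of REST changes expression during neuronal differentiation. No other allele or agent is named. The labels call the arrays biological replicates without saying whether they came from separate cultures or clones, so p-values measure the spread between these arrays only. The names of the ES and NP arrays of strain Black Agouti 129 carry another prefix than those of the TN arrays, so each comparison of TN with ES or NP also crosses that prefix, whose meaning is not given, and stage and prefix cannot be told apart.

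p53, the product of Trp53, is a transcription factor that accumulates after DNA damage and other stress. Mdm2, itself a p53 target, marks p53 for destruction and so closes a feedback loop. Other targets stop the cell cycle (Cdkn1a, which inhibits cyclin-dependent kinases), start apoptosis at mitochondria (Bax and Bbc3, the gene for PUMA) or act in other ways in stressed cells. Embryonic stem cells are known for a short cell cycle and for a p53 response that favours differentiation or death over lasting arrest.

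Promoter windows are shown for the members that were higher together in RESTko ES cells, as far as RefSeq's table (mouse build GRCm38.p6) holds them. Each window runs from 250 bases before to 50 bases after the transcription start, 300 bases in all, and spans the gene's 5′ end. They are the window of Plk2 at chr13:110394794-110395093 on the plus strand, of Mdm2 at chr10:117710709-117711008 on the minus strand, and of Ccng1 at chr11:40755237-40755536 on the minus strand. Capitals mark the p53 half-site, the 10-base element of which a p53 binding site holds a pair, searched on both strands.
Plk2: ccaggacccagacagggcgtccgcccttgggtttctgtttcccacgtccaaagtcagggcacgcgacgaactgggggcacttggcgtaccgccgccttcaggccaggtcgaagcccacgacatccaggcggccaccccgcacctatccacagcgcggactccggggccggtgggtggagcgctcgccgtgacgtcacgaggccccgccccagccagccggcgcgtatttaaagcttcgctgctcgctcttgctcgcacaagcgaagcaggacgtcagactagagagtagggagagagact
Mdm2: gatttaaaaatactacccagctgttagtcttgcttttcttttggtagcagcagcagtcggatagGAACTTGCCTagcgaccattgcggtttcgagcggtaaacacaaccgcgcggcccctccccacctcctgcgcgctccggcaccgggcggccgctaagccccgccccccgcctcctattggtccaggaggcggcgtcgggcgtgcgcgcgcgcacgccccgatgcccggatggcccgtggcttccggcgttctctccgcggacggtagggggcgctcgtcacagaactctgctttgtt
Ccng1: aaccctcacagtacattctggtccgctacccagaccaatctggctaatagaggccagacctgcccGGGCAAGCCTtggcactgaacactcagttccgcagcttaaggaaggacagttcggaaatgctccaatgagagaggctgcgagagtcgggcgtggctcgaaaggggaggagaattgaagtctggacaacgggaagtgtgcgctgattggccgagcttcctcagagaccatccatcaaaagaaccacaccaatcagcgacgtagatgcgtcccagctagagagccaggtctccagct
The windows of Mdm2 and Ccng1 held 1 half-site each and that of Plk2 held 0, while 8.36% of all 32851 windows in the table held at least 1. None of the 3 windows held the core CATG, which 61.1% of all windows held. A pair of half-sites spaced by 0 to 13 bases was found in 24 windows of the table (0.0731%), among them 1 of the 2 windows of Cdkn1a. That stretch is shown because it carries the pair, and it was chosen after the search. It lies at chr17:29090901-29090942 on the plus strand, and its first half-site starts 73 bases before the transcription start.
Cdkn1a: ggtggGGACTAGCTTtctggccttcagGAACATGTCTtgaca
Its half-sites are separated by 12 bases. The windows of Trp53 and Bax held 1 half-site each, and the 3 windows of Bbc3 held 0. Such matches describe the letters in these windows and do not show binding.

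Values are log2 signals as deposited, so a difference of 1 is a doubling, and the level of a gene is compared only with its own level on other arrays. A gene was called when the limma test, fitted to all arrays of its type, gave an adjusted p (Benjamini-Hochberg over all genes) under 0.05. On the larger array type the arrays' median probe-set signal lay between 5.02 and 5.07 for ES, between 5.19 and 5.26 for NP and between 5.41 and 5.49 for TN; on the smaller type it lay between 3.83 and 3.95. All 8 ES markers fell from ES to NP, all 7 NP markers rose, and all 8 neuron markers rose from NP to TN, in both genotypes. The probe set of Rest did not follow the labels at every stage: in RESTko it was lower at ES (difference -0.36, adjusted p = 0.00234), close to equal at NP (-0.01, adjusted p = 0.958) and higher at TN (0.34, adjusted p = 0.0187). Which part of Rest was deleted is not given in the labels, and a probe set outside that part would check nothing. Xist, which acts in X inactivation, had log2 signals of 8.88 to 9.34 on TN arrays labelled RESTko and 3.39 to 4.44 on RESThet arrays. At NP its signals were 5.77 to 8.06 in RESTko and 7.85 to 8.76 in RESTwt. RESThet neurons thus had less Xist than RESTko neurons and than the RESTwt progenitors they are set against. The reason was not tested. The signal of Rest settles the genotype at no stage, and at ES it was still 8.61 in RESTko against 8.96 in RESTwt. Directions between genotypes rest on the labels. The groups also differed on chromosome 8, where 961 genes had median differences of -0.17 at ES, -0.18 at NP and -0.04 at TN. On other chromosomes the medians were -0.02, 0.01 and -0.02. Of the measured members 0 lie on chromosome 8, and the part of this shift in their values was not tested.

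In embryonic stem cells, 6 of the 7 measured members were higher on the arrays labelled RESTko than on those labelled RESTwt, by 1.33-fold to 1.77-fold. They were Plk2, Perp, Mdm2, Zmat3, Trp53inp1 and Ccng1, and Bbc3 was the exception. In this comparison 5.19% of all genes were called higher and 4.05% lower. The median difference of the 7 members was 0.44, against -0.03 over all genes. The members were chosen with earlier results of these data known. Values below are given in the order of arrays a, b and c.

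The feedback inhibitor Mdm2 had log2 signals of 9.89, 9.87 and 9.89 in RESTko and 9.51, 9.42 and 9.36 in RESTwt. The groups did not overlap, and Mdm2 was 0.45 higher in RESTko (SE 0.09, 1.37-fold, adjusted p = 0.00231).

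Among the genes tied to the cell cycle and growth, Plk2 encodes a polo-like kinase that acts in the response to stress and at synapses. Its signals were 9.65, 9.47 and 9.51 in RESTko against 8.84, 8.79 and 8.53 in RESTwt. Every RESTko array lay above every RESTwt array, and the difference was 0.82 (SE 0.13, 1.77-fold, adjusted p = 0.000308), the largest of the 7. Ccng1 encodes cyclin G1, which recruits a phosphatase to Mdm2. It measured 11.00, 10.98 and 10.92 in RESTko against 10.67, 10.48 and 10.51 in RESTwt, again without overlap (0.41, SE 0.09, adjusted p = 0.00428). Zmat3, an RNA-binding zinc finger protein that regulates splicing, had 7.78, 7.73 and 7.88 against 7.50, 7.43 and 7.15. RESTwt array c was the low one, and the difference was 0.44 (SE 0.09, adjusted p = 0.0048), or 0.33 without that array (adjusted p = 0.0346).

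Of the genes tied to cell death and survival, Perp encodes a membrane protein of desmosomes that is also a p53 effector in apoptosis. Perp had 8.20, 8.26 and 7.96 in RESTko and 7.57, 7.56 and 7.44 in RESTwt. The groups lay apart, with a difference of 0.61 (SE 0.14, 1.53-fold, adjusted p = 0.00837). Trp53inp1, a nuclear cofactor of p53 that also acts in autophagy, had 11.40, 11.37 and 11.33 against 11.01, 11.01 and 10.83. It was 0.42 higher in RESTko (SE 0.10, adjusted p = 0.0125), and this call ended without RESTko array a (adjusted p = 0.0519) and without RESTwt array c (adjusted p = 0.0745). Bbc3, whose product PUMA binds and blocks the BCL2 family's survival proteins, had 6.45, 6.61 and 6.55 against 6.65, 6.56 and 6.59. These groups overlapped, and the difference of -0.07 had a 95% interval of -0.25 to 0.12 (adjusted p = 0.732).

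The RESTko and RESTwt arrays did not overlap at ES in 6 of the 7 members, while 29.4% of all genes had no overlap in either direction. Markers of other cell types differed in the same comparison. All 4 smooth muscle markers were called higher in RESTko, with list means of 6.53 to 6.90 against 5.47 to 5.91. Of 11 endoderm and epithelium markers 5 were called higher and 0 lower, with list means of 7.21 to 7.36 against 6.53 to 6.80. They include Krt8 (1.60), Krt18 (1.55) and Krt19 (1.25), keratins of simple epithelia. Neuron markers were higher in 3 of 8 (Snap25 at 2.13, Map2 at 0.55 and Tubb3 at 0.53) and NP markers in 2 of 7, ES markers were lower in 2 of 8, and 0 of 6 fibroblast, 0 of 5 astrocyte and 0 of 4 blood and microglia markers were called (0, 1 and 0 at an unadjusted p under 0.05, limma). The part of these differences in the members' values was not tested. In a bulk sample, a change in the number of cells of a type and a change in RNA per cell cannot be told apart.

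**Figure D1:**
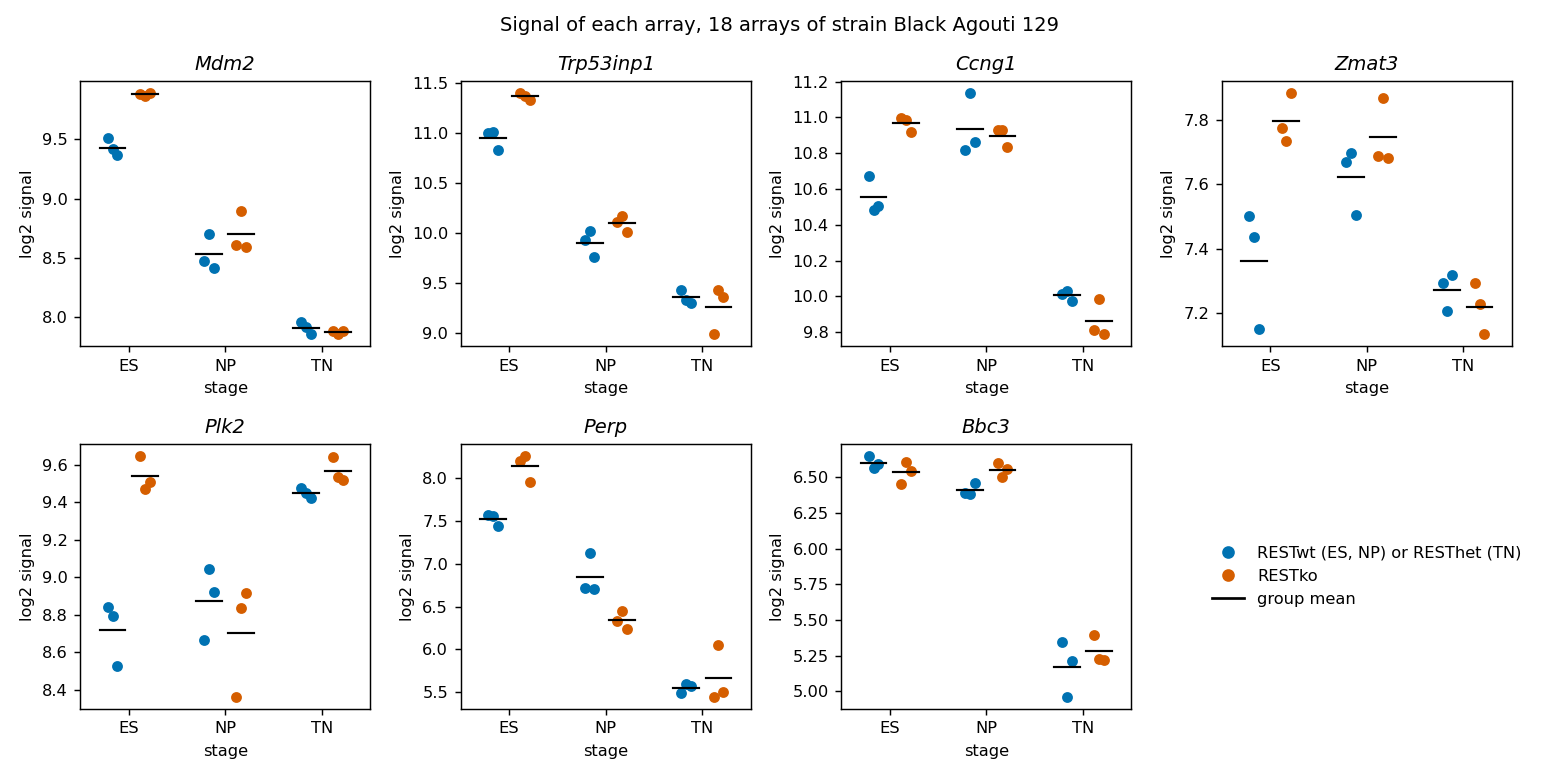
Log2 signal (vertical axis) of the 7 measured members on each of the 18 arrays of strain Black Agouti 129, by stage (horizontal axis), with RESTwt or RESThet in blue, RESTko in orange and group means as black bars. At ES the RESTko arrays lie above the RESTwt arrays in 6 panels, and in Bbc3 they overlap.

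In neuronal progenitors, Perp was the 1 member of 7 called, and it was lower in RESTko. Over all genes 4.32% were called higher and 3.71% lower at NP. Perp had 6.33, 6.45 and 6.23 in RESTko and 6.72, 7.12 and 6.70 in RESTwt, the opposite order to that at ES. The groups did not overlap, and Perp was 1.42-fold lower in RESTko (difference -0.51, SE 0.14, adjusted p = 0.0307). This call ended without RESTwt array b, the high one (-0.37, adjusted p = 0.189), without RESTko array a (-0.51, adjusted p = 0.0945), without RESTko array c (-0.46, adjusted p = 0.105), and in a fit of the 2 groups alone (adjusted p = 0.0799).

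Between genotypes, these keratins differed in the same direction as Perp at ES and at NP. Over the step from ES to NP in RESTwt cells they did not follow it. Mean signals rose for Krt8 (7.90 to 10.36), Krt18 (7.47 to 9.86) and Krt19 (7.21 to 9.50), while Perp fell (7.53 to 6.85). At NP Krt19 (-1.27), Krt8 (-0.97) and Krt18 (-0.87) were called lower in RESTko. Of the 11 endoderm and epithelium markers 4 were called lower and 1 higher (Gata4, 0.72), with list means of 7.59 to 7.66 in RESTko against 7.82 to 8.22 in RESTwt. Smooth muscle markers were called lower in 2 of 4 (Tagln at -1.21) and fibroblast markers in 3 of 6, neuron markers higher in 5 of 8, and 0 of 8 ES, 0 of 7 NP, 0 of 5 astrocyte and 0 of 4 blood and microglia markers were called (2, 2, 0 and 0 at an unadjusted p under 0.05, limma). Their part in the result for Perp was not tested.

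The other members showed smaller differences at NP. Mdm2 had 8.61, 8.90 and 8.59 in RESTko against 8.47, 8.70 and 8.42 in RESTwt, a difference of 0.17 with a 95% interval of -0.01 to 0.35 (adjusted p = 0.304). Its groups overlapped, and array b was the high one in each. Trp53inp1 had 10.11, 10.17 and 10.02 against 9.93, 10.02 and 9.76, where the groups touched at 10.02 (0.20, 95% interval -0.02 to 0.41). Plk2 had 8.36, 8.83 and 8.92 against 8.66, 9.04 and 8.92, with RESTko array a the low one (-0.17, 95% interval -0.44 to 0.09). Zmat3 (0.12), Ccng1 (-0.04) and Bbc3 (0.14) were not called. Bbc3, at 6.60, 6.50 and 6.55 against 6.39, 6.38 and 6.46, and Perp were the 2 members of 7 whose groups did not overlap, against 21.9% of all genes. The median difference of the members was 0.12, and that of all genes 0.01.

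In terminal neurons, where RESTko arrays were set against RESThet arrays, limma called 0 of the 7 members, and 0 had an unadjusted p under 0.05. Over all genes 0.356% were called higher and 0.802% lower (0.527% and 0.497% after median centring of the arrays). Differences ran from -0.14 in Ccng1 (95% interval -0.32 to 0.04) to 0.12 in Plk2 (95% interval -0.15 to 0.38). Mdm2 had 7.89, 7.86 and 7.89 against 7.96, 7.91 and 7.86, and these groups overlapped. Perp had 5.45, 6.05 and 5.50 against 5.49, 5.60 and 5.57, with RESTko array b standing above the rest. Plk2 was the 1 member whose groups did not overlap, at 9.64, 9.54 and 9.52 against 9.48, 9.45 and 9.42, while 16.0% of all genes had no overlap. The intervals of Mdm2 (-0.22 to 0.15), Zmat3 (-0.25 to 0.14), Trp53inp1 (-0.31 to 0.12) and Perp (-0.18 to 0.41) leave out these genes' differences at ES. So do the intervals of Plk2 and Ccng1 above, and the error of the ES differences is not counted here. The controls differ between the stages, since RESThet cells carry the knock-out allele on 1 chromosome. At TN 1 of 7 NP, 1 of 8 neuron and 1 of 5 astrocyte markers were called lower, 2 of 11 endoderm and epithelium markers higher, and 0 of 8 ES, 0 of 6 fibroblast, 0 of 4 smooth muscle and 0 of 4 blood and microglia markers were called (1, 3, 1 and 0 at an unadjusted p under 0.05, limma).

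**Figure D2:**
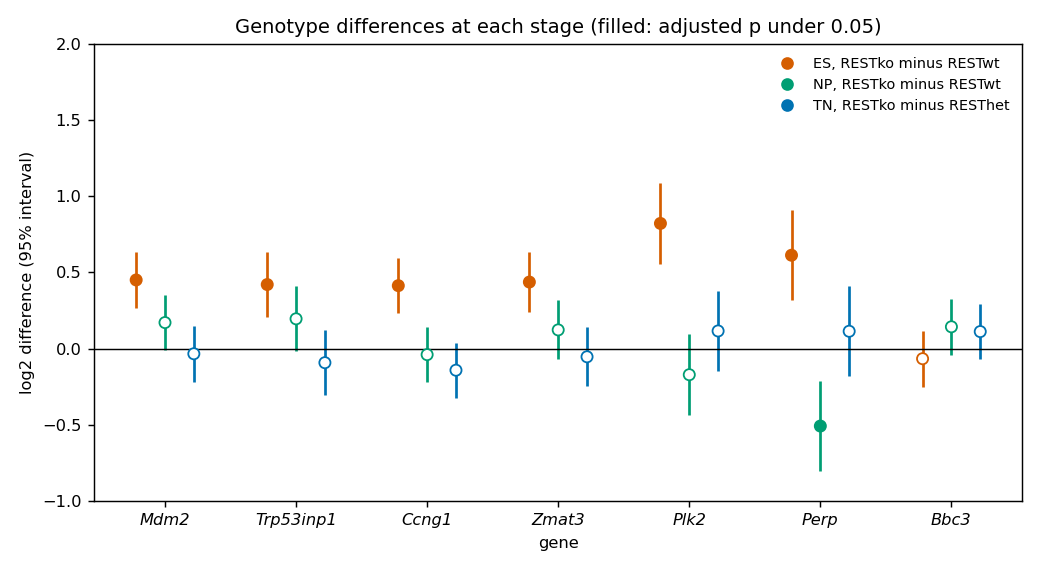
Log2 difference between genotypes (vertical axis, points) with its 95% interval (lines) for each measured member (horizontal axis) at ES in orange, NP in green and TN in blue, with filled points where the adjusted p is under 0.05. The ES points of 6 members lie from 0.41 to 0.82, Perp at NP lies at -0.51, and every TN interval crosses 0.

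Whether the genotype effect itself differed between stages was tested as an interaction. From ES to NP the effect dropped in Perp by 1.12 (SE 0.20, adjusted p = 0.00263), in Plk2 by 0.99 (SE 0.18, adjusted p = 0.00291) and in Ccng1 by 0.45 (SE 0.12, adjusted p = 0.038). These 3 of 7 members were called lower and 0 higher, while over all genes 2.55% were called lower and 2.31% higher. The effects on Mdm2 (-0.28, adjusted p = 0.243), Zmat3 (-0.31, adjusted p = 0.213), Trp53inp1 (-0.23, adjusted p = 0.473) and Bbc3 (0.21, adjusted p = 0.422) were not shown to differ between ES and NP. The calls of Perp and Plk2 held with each of the 12 arrays left out in turn. That of Ccng1 ended in 9 of the 12, with RESTko a, b or c or RESTwt b or c left out at ES, or RESTko a, b or c or RESTwt b left out at NP (adjusted p up to 0.1). It also ended with all arrays kept, in a fit of the compared groups alone (adjusted p = 0.0666) and after median centring (adjusted p = 0.0509).

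From ES to TN the effect was called lower in 5 of 7 members: Plk2 (-0.71, adjusted p = 0.0258), Ccng1 (-0.56, adjusted p = 0.0109), Trp53inp1 (-0.51, adjusted p = 0.0447), Zmat3 (-0.49, adjusted p = 0.034) and Mdm2 (-0.48, adjusted p = 0.0262). Perp (-0.50, adjusted p = 0.169) and Bbc3 (0.18, adjusted p = 0.471) were not called. Over all genes 3.46% were called lower and 1.94% higher, or 2.60% and 2.74% after median centring. After median centring 2 members stayed called, Plk2 and Ccng1, and Mdm2 (adjusted p = 0.0701), Zmat3 (adjusted p = 0.0812) and Trp53inp1 (adjusted p = 0.0661) lost their calls. The same 3 lost them after quantile normalization (adjusted p = 0.0982, 0.0977 and 0.0704), and Trp53inp1 also in a fit of the compared groups alone (adjusted p = 0.0608). Ccng1 kept its call with each of the 12 arrays left out. Plk2 lost it in 4 of the 12, without RESTko a or RESTwt c at ES or RESTko c or RESThet a at TN (adjusted p up to 0.0772). Mdm2 lost it in 7, without RESTko a or c or RESTwt b or c at ES, or RESTko c or RESThet a or b at TN (adjusted p up to 0.0703). Zmat3 lost it in 7, without RESTko a or c or RESTwt c at ES, or RESTko b or c or RESThet a or c at TN (adjusted p up to 0.09). Trp53inp1 lost it in 10, keeping it only without TN RESTko b or c (adjusted p up to 0.122), and Perp was called without TN RESTko b (-0.69, adjusted p = 0.0191). With RESTko a or RESTwt c left out at ES, or RESThet a at TN, 1 member remained called. The change of stage, the change of control and the change of name prefix between ES and TN cannot be told apart here. The difference in Xist between the TN groups cannot be told apart from these either.

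Between NP and TN, limma called 0 of 7 members for a changed genotype effect, and 1, Perp, had an unadjusted p under 0.05 (0.62, adjusted p = 0.0941). Over all genes 1.40% were called higher and 2.51% lower, or 2.05% and 1.96% after quantile normalization and 1.97% and 1.65% after median centring.

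Across the stages the members fell into different courses. Mdm2 ran from a mean of 9.88 ± 0.01 (SD, n = 3) in RESTko ES cells through 9.43 ± 0.07 in RESTwt ES cells, 8.70 ± 0.17 and 8.53 ± 0.15 at NP, to 7.91 ± 0.05 in RESThet and 7.88 ± 0.02 in RESTko neurons. The neighbours at NP and those at TN overlapped, and each step between stages was larger than the spread. Trp53inp1 kept the same order of stages, from 11.37 ± 0.03 and 10.95 ± 0.10 at ES to 10.10 ± 0.08 and 9.90 ± 0.13 at NP and 9.27 ± 0.24 and 9.36 ± 0.07 at TN, in RESTko first. Plk2 instead had its high levels in RESTko ES cells (9.54 ± 0.09) and in neurons (9.57 ± 0.07 in RESTko, 9.45 ± 0.03 in RESThet), and its low levels in RESTwt ES cells (8.72 ± 0.17) and at NP (8.70 ± 0.30 and 8.88 ± 0.19). Those 3 low groups overlapped one another, as did the RESTko groups at ES and TN.

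From ES to NP in RESTwt cells 5 of 7 members were called. Over all genes 31.0% rose and 36.1% fell in this step (19.7% and 61.4% after median centring, which shifts the median of all genes from -0.07 to -0.40), so a count of this size is near the background. Trp53inp1 fell by 1.04, Mdm2 by 0.90 and Perp by 0.68. Ccng1 was called higher by 0.38 on the deposited scale, and it was at 0.65 after quantile normalization and at 0.06 (adjusted p = 0.587) after median centring. Zmat3 was called higher by 0.26 (adjusted p = 0.0183), and its direction turned after median centring (-0.065, adjusted p = 0.551). The call of Zmat3 also ended without RESTwt array c at ES (0.16, adjusted p = 0.135) and without RESTwt array a or b at NP (adjusted p = 0.0556 and 0.0664), after quantile normalization (0.12, adjusted p = 0.206), with array weights (adjusted p = 0.0594) and in a fit of the compared groups alone (adjusted p = 0.064). Plk2 (0.16) and Bbc3 (-0.19) were not called, and Bbc3 was called after either rescaling (-0.50 by quantiles, -0.52 by medians).

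In RESTko cells 4 of 7 members fell from ES to NP. They were Perp (-1.80, SE 0.14, 3.48-fold), Trp53inp1 (-1.27), Mdm2 (-1.18) and Plk2 (-0.84). Over all genes 32.2% rose and 33.9% fell (19.9% and 60.9% after median centring). Zmat3 (-0.05) and Ccng1 (-0.07) were not called on the deposited scale and were called lower after median centring (-0.40 and -0.41). Bbc3 changed sign with the scale, from 0.02 to -0.31 by quantiles and -0.33 by medians. Since the genotype differences above share these arrays, the larger drops of Perp and Plk2 in RESTko are the same contrast as their interactions.

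From NP to TN all 7 measured members were called in both settings, 6 lower and Plk2 higher. The step from RESTwt to RESThet also crosses genotype and Xist level, which cannot be told apart from stage. In RESTko Xist rose by 1.86 from NP to TN (limma, adjusted p = 0.000758), so that step crosses Xist level too. In RESTko cells Bbc3 fell by 1.27, Ccng1 by 1.03, Trp53inp1 by 0.83, Mdm2 by 0.82, Perp by 0.67 and Zmat3 by 0.53, while Plk2 rose by 0.86 (SE 0.13). From RESTwt NP to RESThet TN Perp fell by 1.30, Bbc3 by 1.24, Ccng1 by 0.93, Mdm2 by 0.62, Trp53inp1 by 0.55 and Zmat3 by 0.35, and Plk2 rose by 0.57. Over all genes 41.8% rose and 29.2% fell in RESTko (30.4% and 36.8% by quantiles, 34.2% and 33.4% by medians), and 43.2% rose and 29.9% fell from RESTwt to RESThet (30.5% and 38.7%, 31.3% and 37.7%). The deposited values carry a median shift over all genes of 0.13 and 0.14 in these steps, which the quantile scale turns to -0.05 and -0.06. The directions and calls of the 7 members were the same on all 3 scales, though Zmat3 from RESTwt to RESThet was at -0.57 by quantiles.

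The course of the mixed-strain wildtype cells was measured on separate arrays and gives the values of Cdkn1a. Cdkn1a encodes p21, which halts the cell cycle. Its log2 signals were 8.44 and 8.61 at ES, 8.61 and 8.03 at NP, and 7.90 and 8.47 at TN, in the order of arrays a and b. The 3 stages overlapped, with -0.20 from ES to NP (95% interval -0.74 to 0.34) and -0.14 from NP to TN (95% interval -0.68 to 0.40). A second probe set of Cdkn1a was not called in either step (-0.01 and -0.56).

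From ES to NP 4 of 8 members fell in this course and 0 rose, against 19.0% and 19.9% of all genes (25.2% and 15.7% after median centring). Perp went from 7.24 and 7.38 to 5.83 and 4.91, a fall of 1.94 (SE 0.26, adjusted p = 0.000438). Trp53inp1 fell by 1.46 (10.37 and 10.40 to 8.92 and 8.94), and Mdm2 fell by 0.94 (9.21 and 9.18 to 8.30 and 8.22). Bbc3 fell by 0.59 (7.14 and 7.57 to 6.81 and 6.71, adjusted p = 0.0244), a call that ended without ES array b (-0.38, adjusted p = 0.182), NP array a (-0.64, adjusted p = 0.0651) or NP array b (-0.54, adjusted p = 0.118). Plk2 (7.77 and 7.79 against 7.72 and 7.50) and Zmat3 (8.88 and 9.02 against 9.03 and 9.01) were not called. The probe sets of Ccng1 disagreed: the brightest was not called (-0.29, adjusted p = 0.481), a second was (-0.81, adjusted p = 0.00183, in a fit of all probe sets), and 1 more was at -0.59 (adjusted p = 0.0606 in that fit).

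From NP to TN 4 of 8 members fell in the mixed strain and 0 rose, against 29.1% and 21.7% of all genes. They were Zmat3 (-1.24, to 7.79 and 7.76), Ccng1 (-1.23, to 8.87 and 7.98), Mdm2 (-1.12, to 6.93 and 7.36) and Trp53inp1 (-0.89, to 8.23 and 7.85). A second bright probe set of Mdm2 fell less (-0.59, adjusted p = 0.00494 in the fit of all probe sets), and the mean over the probe sets of Mdm2 was at -0.52 (adjusted p = 0.0052). Without TN array b, the low one, Ccng1 was at -0.79 (adjusted p = 0.0191). Bbc3 was at 6.19 and 6.44 (-0.45, adjusted p = 0.0589), and it was called in a fit of the compared groups alone (adjusted p = 0.0419), with the mean over probe sets (adjusted p = 0.0491) and with the replicate block (adjusted p = 0.0493). Plk2 was at 7.75 and 8.38, with a difference of 0.45 (adjusted p = 0.0957), and it was called without TN array a (0.77, adjusted p = 0.00576). Perp was at 5.28 and 5.01, and the difference of -0.23 became -0.69 without NP array b (adjusted p = 0.017). In fits that leave 1 array in a stage, that array is assumed to vary like the others.

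**Figure D3:**
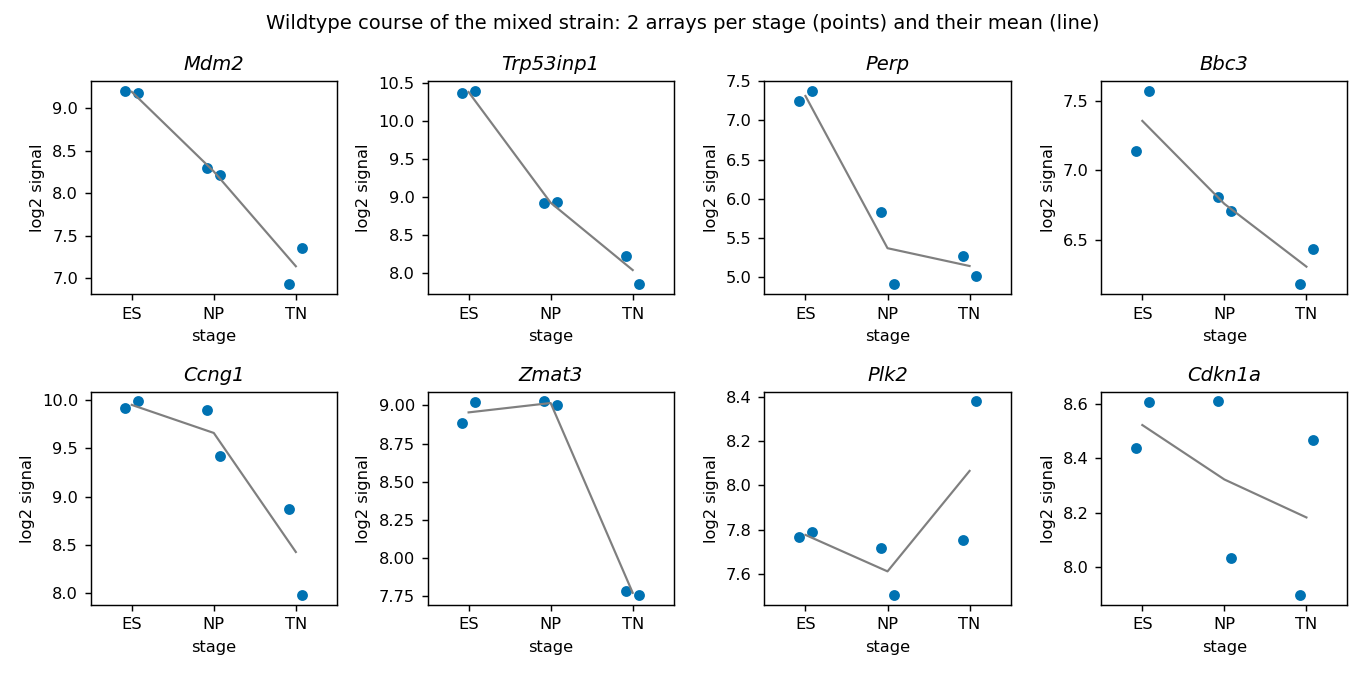
Log2 signal (vertical axis) of the 8 members measured in the mixed-strain wildtype course on each of 2 arrays per stage (points), with the stage means joined by a line, by stage (horizontal axis). Mdm2 and Trp53inp1 step down at both transitions, Perp steps down from ES to NP, and the arrays of Cdkn1a overlap between stages.

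The wider pathway was described by 5 further lists, drawn up with earlier results of these data known, so their counts are not independent support. Of 30 measured further p53 targets (31 listed), 7 were higher in RESTko ES cells and 0 lower (6 and 0 by quantiles). Over all genes 5.19% were higher and 4.05% lower. The list median was 0.07, against -0.03 over all genes. Aen, an exonuclease gene that acts in apoptosis, had the largest difference (1.15, SE 0.12, 2.22-fold, adjusted p = 4.6e-06). Next came Ddit4l (0.74), a regulator of the growth kinase mTOR, Cpt1c (0.58), a brain form of carnitine palmitoyltransferase, and Polk (0.49), a polymerase that copies damaged DNA. At NP, where 4.32% of all genes were higher and 3.71% lower, 2 were higher (Plk3 at 0.44 and Cpt1c at 0.37) and 1 lower (Pmaip1, the gene for the BCL2 antagonist NOXA, at -0.67, adjusted p = 0.0195). At TN limma called 0 (7 at an unadjusted p under 0.05), and 1 was called higher after quantile normalization. The effect dropped from ES to NP in Aen (-0.77, adjusted p = 0.00985), Ddit4l (-0.82) and Polk (-0.49) and rose in Plk3 (0.63), against 2.55% of all genes called lower and 2.31% higher. Between ES and TN 7 of the 30 were called lower, against 3.46% of all genes.

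Of 22 p53 regulators and relatives, 3 were higher and 2 lower in RESTko ES cells (2 and 2 by quantiles, 3 and 1 by medians), against 5.19% and 4.05% of all genes. Trp53bp1 (0.54), a scaffold at DNA breaks, Hipk2 (0.42), a kinase that activates p53, and Ppp1r13l (0.30), an inhibitor of p53, were higher. Cdkn2a, whose ARF product restrains Mdm2, was lower (-0.48, adjusted p = 0.00242). At NP Chek2 (-0.67), a checkpoint kinase, and Trp63 (-0.33), a relative of p53 in epithelia, were lower and 0 were higher, against 3.71% and 4.32% of all genes, and at TN limma called 0 (2 at an unadjusted p under 0.05). The list's median differences were 0.05, 0.00 and -0.01 at ES, NP and TN.

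Among 24 measured genes of the BCL2 family and caspase machinery (26 listed), 2 were higher at ES, Bcl2l1 (0.32), which encodes the survival protein BCL-XL, and Apaf1 (0.29), the core of the apoptosome, and 0 were lower (1 and 0 after either rescaling), against 5.19% and 4.05% of all genes. At NP Bcl2l11 (-0.38), the gene for BIM, and Bak1 (-0.36), a pore-forming partner of BAX, were lower and 0 were higher, against 3.71% and 4.32% of all genes. At TN limma called 0, and 2 had an unadjusted p under 0.05. The list median was -0.02 at ES, close to that of all genes.

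Genes of proliferation did not pass the test in any genotype comparison on the deposited scale. Of 14 measured (15 listed), limma called 0 at ES, NP and TN, with 0, 2 and 4 at an unadjusted p under 0.05, and 1 was called lower at NP after either rescaling. All 14 fell from NP to TN in RESTko cells, from RESTwt to RESThet, and in the mixed strain, with list medians of -2.88, -2.82 and -3.87. Of 12 immediate-early genes, which answer stimuli within minutes, 2 were higher in RESTko ES cells (Fosb at 1.23 and Atf3 at 0.88, itself also a stress gene) and 2 lower (Ier2 and Arc, each at -0.51), or 2 and 1 after quantile normalization, against 5.19% and 4.05% of all genes. For these genes limma called 0 at NP and 0 at TN (2 and 5 at an unadjusted p under 0.05), and 1 was called lower at NP after quantile normalization. All 12 lay above 0 at TN with a median of 0.39, and 2 were called there after median centring. The list means of the TN arrays overlapped, at 6.04 to 6.71 in RESTko and 5.70 to 6.18 in RESThet. The 12 genes share these arrays, so their directions are not separate results.

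**Figure D4:**
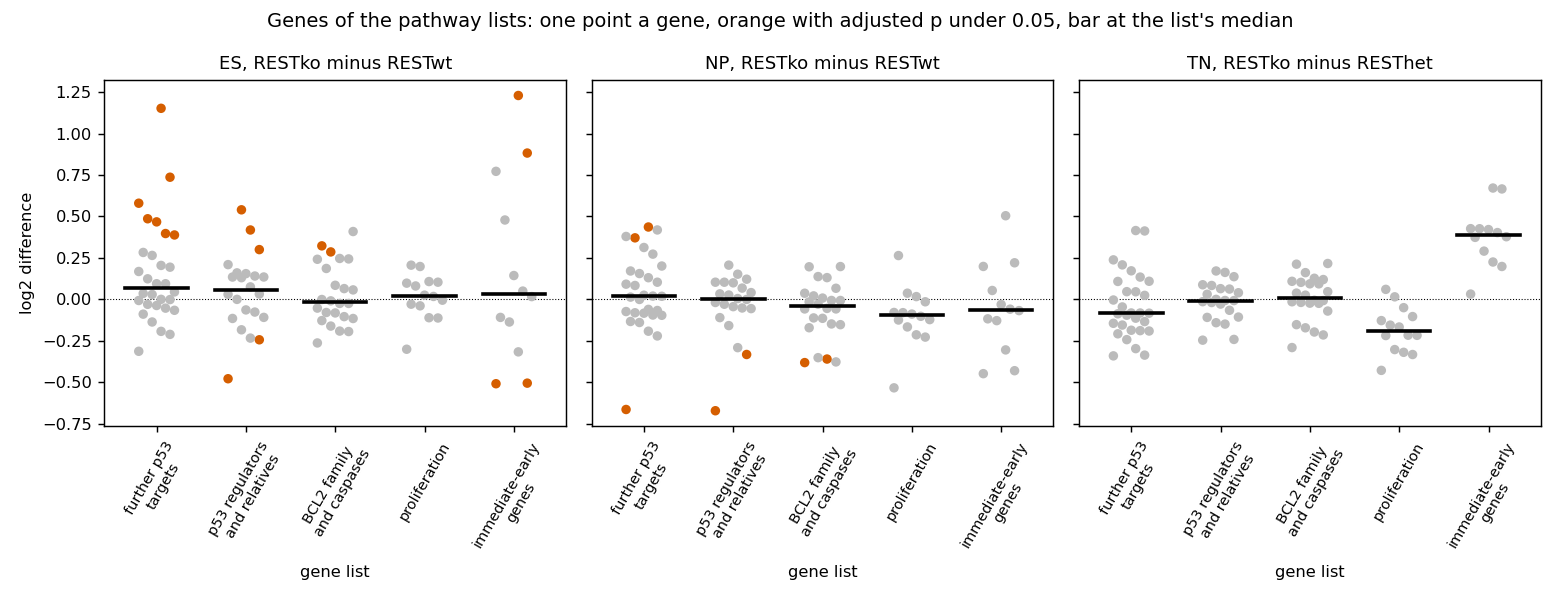
Log2 difference between genotypes (vertical axis) of each measured gene of the 5 further lists (horizontal axis) at ES, NP and TN, with called genes in orange and list medians as black bars. At ES the 7 called genes of the further p53 targets all lie above 0, and at TN no gene of these lists is called.

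From ES to NP 17 of the 30 further p53 targets fell and 7 rose in RESTwt, where 36.1% of all genes fell and 31.0% rose. In RESTko 18 fell and 6 rose, against 33.9% and 32.2% of all genes. After median centring the counts were 19 and 4 in RESTwt and 22 and 4 in RESTko, where 61.4% and 60.9% of all genes fell, so falling more often than rising is the background on that scale. From NP to TN 19 fell and 6 rose in RESTko, against 29.2% and 41.8% of all genes, and 18 fell and 6 rose from RESTwt to RESThet, against 29.9% and 43.2%. In the mixed strain 14 fell and 4 rose from ES to NP, against 19.0% and 19.9% of all genes, and 21 fell and 3 rose from NP to TN, against 29.1% and 21.7%. Eda2r, a receptor of the TNF receptor family, fell from ES to NP in RESTwt (-1.90) and in RESTko (-1.99). Psrc1, a spindle protein, fell from NP to TN in RESTko (-2.70) and from RESTwt to RESThet (-2.63). Among the regulators Chek2 fell from ES to NP in RESTwt (-2.16) and RESTko (-2.72). Mdm4, the partner of Mdm2, fell in the same steps (-1.44 and -1.43), while Hipk2 rose (2.15 and 1.84). In the cell death list Bid, which links death receptors to mitochondria, fell from ES to NP (-1.64 in RESTwt and -1.62 in RESTko). The caspase gene Casp6 fell from NP to TN in RESTko (-2.12) and from RESTwt to RESThet (-1.94).

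The genes whose signals followed a member closest over the 18 arrays were listed by Pearson's r among the brighter 70% of genes (13956). The arrays share stages and groups, so these values are a description. For Mdm2 they were Srpk1 (0.994), Trp53inp1 (0.991), itself a member, and Ddx1 (0.990), and 1835 genes exceeded 0.9. For Plk2 they were Myc (0.961), Ece1 (0.901) and Mccc1 (0.899), and 2 genes exceeded 0.9. Myc, a transcription factor of growth, had 7.80 ± 0.15 in RESTko ES cells, 6.69 ± 0.21 in RESTwt ES cells and 7.92 ± 0.11 in RESTko neurons (n = 3 each), so it shared with Plk2 the low level in RESTwt ES cells.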

How the data were processed

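Values are log2 probe-set signals deposited by the authors, made with oligo 1.14.0 per the submitters' processing notes; the sources used here do not give the background correction, summarization or normalization, and the values were used as deposited. On the larger array type 21789 of 35556 probe sets carried 1 symbol, 1621 several and 12146 none, and on the smaller 34958 of 45101 carried 1. Symbols were updated by gene number to RefSeq (GRCm38.p6). A gene took its probe set with the highest mean. limma 3.58.1 in R 4.3.3 was fitted to all arrays of a type with a mean for each group, two-sided, over 12 comparisons. In simulated data 100 genes each were shifted by 0.5 and by 1, fewer than were called in the data. At ES between genotypes it recovered 68% and 99% of them. In the mixed strain from ES to NP it recovered 0% and 37%. That simulation gave 39 calls, against 7071 in the data. The adjusted threshold loosens as more genes are called, so these shares do not give the recovery in the data. Missing calls in the mixed strain rest on 2 arrays at each stage. Arrays have no read depth: their number limits precision, and the median SE of a genotype difference was 0.10. No column held identical values to another.

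The members and lists were chosen with earlier results of these data known. All 10 members are named where measured. Of each further list, up to 4 called genes with the largest difference are named for a genotype comparison and up to 3 for a stage step. The 5 pathway lists and 8 marker lists come from general knowledge. Alternatives were a replicate block, a fit of the compared groups alone, the mean over probe sets, omission of the dimmest 30% of genes, quantile normalization, median centring, array weights and each array left out.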

Additional observations from a re-analysis of the deposited data

Results flagged for a closer look

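Between embryonic stem cells and progenitors the genotype effect differed, by the test of the difference itself, in Perp (-1.12, adjusted p = 0.00263), Plk2 (-0.99, adjusted p = 0.00291) and Ccng1 (-0.45, adjusted p = 0.038). The call of Ccng1 ended in 9 of 12 fits with an array left out, in a fit of the compared groups alone (adjusted p = 0.0666) and after median centring (adjusted p = 0.0509). Between embryonic stem cells and neurons it differed in Plk2 (-0.71, adjusted p = 0.0258), Ccng1 (-0.56, adjusted p = 0.0109), Trp53inp1 (-0.51, adjusted p = 0.0447), Zmat3 (-0.49, adjusted p = 0.034) and Mdm2 (-0.48, adjusted p = 0.0262), with another control genotype at each of these stages. Of these 5, Mdm2, Zmat3 and Trp53inp1 lost their calls after quantile normalization and after median centring. All p-values are from limma. Groups of 3 or 2 arrays are too small to test a single array as an outlier.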

How the results depend on the processing

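At ES 6 members were called higher under each of the 7 alternatives that keep all arrays, and 5 or 6 with 1 array left out. At NP the call of Perp gave way to 0 calls in the fit of the compared groups alone, and leaving out 1 array gave 0 to 1. Between NP and TN the replicate block turned 0 calls into 1 (Perp, 0.62, adjusted p = 0.0309), called Bbc3 lower in the mixed strain from NP to TN (-0.45, adjusted p = 0.0493), and changed no other call. Correlations by letter between the genotypes differed by stage. For letters a, b and c deviations correlated at 0.13, 0.19 and -0.03 at ES and at -0.19, 0.02 and 0.09 at TN. At NP the values were 0.49, 0.41 and 0.01. There the unlike pairs of a and b were at -0.44 and -0.46. Deviations were taken from the mean of each group of 3 arrays and sum to 0. The values of a and b are therefore not independent, and whether letters mark pairs is not settled by them. The 5 calls of the interaction from ES to TN became 2 after quantile normalization and 2 after median centring, and 1 to 5 with 1 array left out. Median centring raised the 4 calls of RESTko cells from ES to NP to 7. The direction of Zmat3 from ES to NP in RESTwt cells turned from 0.26 to -0.065 with median centring, and that of Bbc3 in RESTko cells from 0.02 to -0.31 with quantile normalization and -0.33 with median centring. Array weights, the mean over probe sets and omission of the dimmest 30% of genes left 85, 84 and 85 of 86 results on their side of the threshold. Signals of stages are compared on the authors' scale, and 2 or 3 arrays a group limit what a missing call can show.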
